A study of Schizosaccharomyces pombe with 4 samples.

Results

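The genes described here encode succinate dehydrogenase (SDH) and enzymes of the tricarboxylic acid (TCA) cycle of the fission yeast Schizosaccharomyces pombe. They are the SDH subunit genes sdh1 (SPAC1556.02c), sdh2 (SPAC140.01), sdh3 (SPCC330.12c) and sdh4 (SPBP23A10.16), and the enzyme genes cit1 (SPAC6C3.04), aco1 (SPAC24C9.06c), idh1 (SPAC11G7.03), kgd1 (SPBC3H7.03c), fum1 (SPCC18.18c) and mdh1 (SPCC306.08c). The 10 genes were set by a list of identifiers of this pathway. The rule uses no measured value, but the list was drawn up with earlier results of these data known. All 10 are among the 5143 genes of the table for 24°C, and 1 of them, cit1, is among the 285 genes of the table analysed for 30°C.

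The strains sequenced were the wild type of S. pombe and fas S.j., in which the open reading frames of the fatty acid synthase genes fas1 and fas2 were exchanged for those of Schizosaccharomyces japonicus, linked to kanR and hygR markers, with the S. pombe flanking sequences kept. Each strain was grown to exponential phase in YES, a rich medium, at either 24°C or 30°C. There were 4 poly(A) libraries, 1 for each strain at each temperature. Mating type and other markers of the sequenced strains are not stated in the labels. The paper lists a wild type of mating type h- and fas S.j. strains of mating types h+ and h-, and does not say which were sequenced. A difference in mating type or markers cannot be told apart from the exchange of the fas genes. Levels are FPKM, the fragments on a gene scaled to the length of its transcript and to the size of the library, so genes can be compared with each other. A change is log2 of FPKM + 1 in fas S.j. over FPKM + 1 in wild type. With 1 library per condition, no difference below has a replicate check or a p-value, and a difference between strains cannot be told apart from one between 2 cultures. The exchanged genes matched the strain labels: from wild type to fas S.j., fas1 went from 301 to 7.35 FPKM at 24°C and fas2 from 336 to 0.320. At 30°C, fas1 went from 344 to 16.6 FPKM and fas2 from 347 to 0.832. The mating pheromone gene mfm2 had 100 FPKM in wild type at 24°C and a change of -5.86. Whether the sequenced strains differ in mating type was not tested.

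The TCA cycle runs in the mitochondrial matrix. It oxidises the acetyl group of acetyl-CoA to carbon dioxide and hands the electrons to the respiratory chain as reduced cofactors. SDH is shared by the cycle and the chain, where it is known as complex II. It oxidises succinate to fumarate and passes the electrons through flavin and iron-sulfur clusters to ubiquinone in the inner membrane. S. pombe lacks a proton-pumping complex I and the glyoxylate bypass, and in glucose-rich medium it ferments while it also respires.

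In fas S.j. cells at 24°C, the mRNA of each of the 4 SDH subunits was higher than in wild type, by 1.16-fold to 1.92-fold. The 6 other members went either way, between 0.792-fold and 1.15-fold. The iron-sulfur subunit gene sdh2 was past the fold limit of 0.8 on the log2 scale, the limit used in the study, and no other member was. The study paired this limit with a p-value criterion, which was not used here. The background share is 4.19% of the 4943 genes whose mean FPKM reached 1, of which 207 were higher by more than 0.8. It is 3.15% of the 2127 genes whose mean FPKM reached 50, as that of all 10 members did. No member was lower by more than 0.8, where 2.08% of the 4943 genes were.

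The flavoprotein subunit of SDH, encoded by sdh1, binds succinate. Its gene lies on chromosome I from 3796280 to 3798462 on the minus strand of the reference ASM294v3. At 24°C sdh1 had 274 FPKM in the wild-type library against 318 in that of fas S.j., which is a change of 0.21. It had the highest level of the 4 subunits in both libraries and the smallest change.

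The iron-sulfur subunit, encoded by sdh2, carries the clusters that conduct electrons from the flavin towards ubiquinone. The gene lies on chromosome I from 1895431 to 1896752 on the plus strand and is alone in its locus. At 24°C sdh2 went from 82.8 FPKM in the wild-type library to 159 in fas S.j., 1.92-fold higher or 0.93 on the log2 scale. In wild type sdh2 was the lowest of the 4 subunits. The change of sdh2 was above that of 97.8% of the 2127 genes at a mean FPKM of 50 or more, and 46 of those genes had a larger one. From the steps of low FPKM values, about 1240 wild-type and 1880 fas S.j. reads were estimated to lie on sdh2. Counting error alone then gives a standard error of 0.05 on its log2 change, without the variation between cultures.

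The cytochrome b subunit gene sdh3 and the small anchor gene sdh4 encode the membrane part of SDH, where ubiquinone is reduced. The FPKM of sdh3, on chromosome III from 135724 to 136648 on the minus strand, went from 164 in the wild-type library to 220 in fas S.j., a change of 0.42. The FPKM of sdh4, on chromosome II from 2036060 to 2036579 on the plus strand, went from 115 to 188, a change of 0.71. RefSeq names SPBP23A10.16 tim18, with sdh4 as a synonym, and describes the product as an anchor subunit of SDH and of the TIM22 protein import complex. Its transcript model ends at the stop codon, so the level per length of sdh4 covers a shorter model than those of the other subunits. It also rests on the fewest reads of the 10 members, an estimated 490 in wild type against 630 in fas S.j., with a standard error of 0.09 from counting alone. The changes of sdh3 and sdh4 exceeded those of 91.1% and 96.1% of the 2127 genes.

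Among the subunits, the order of the changes was the reverse of the order of wild-type levels: sdh2 was lowest in wild type and changed most, then came sdh4 and sdh3, and sdh1 was highest and changed least. The same wild-type library enters both orders, so variation in that library alone can set them against each other. The ratio of the highest to the lowest subunit level was 3.31 in wild type but 1.999 in fas S.j., so the levels of the 4 mRNAs lay closer together in fas S.j. Summed over the 4 subunits, FPKM went from 636 in the wild-type library to 885 in fas S.j. Summed over the 6 other members, it went from 1276 to 1225.

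**Figure D1:**
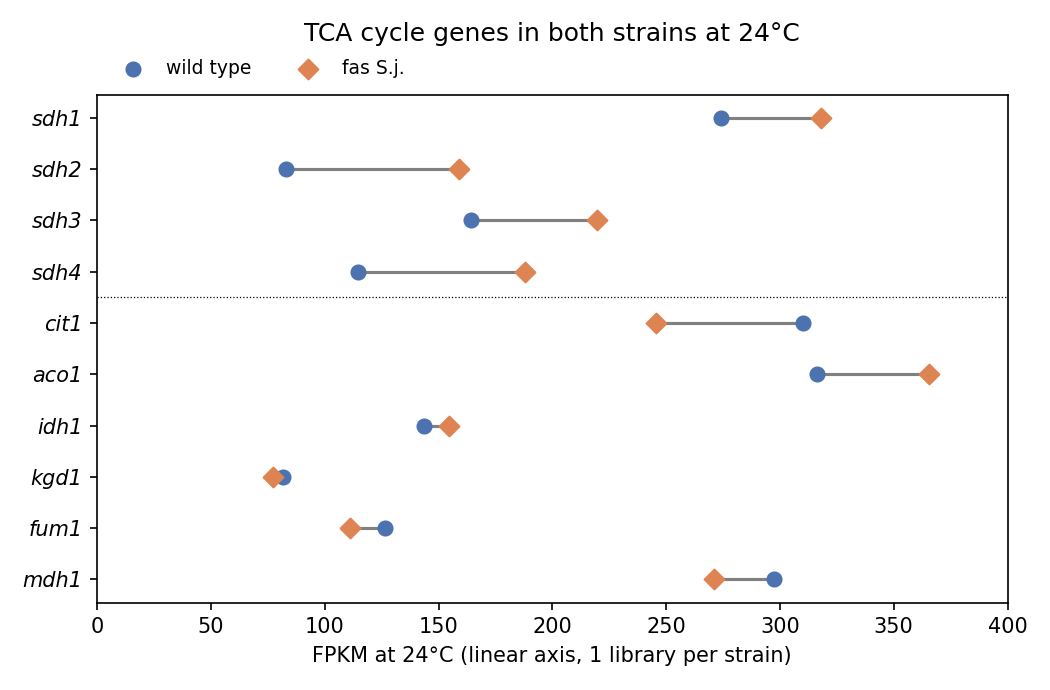
FPKM of the 10 TCA cycle genes at 24°C on a linear axis, with a circle for the wild-type library and a diamond for the fas S.j. library, 1 library each. All 4 SDH genes, above the dotted line, have the diamond to the right, with sdh2 going from 82.8 to 159 FPKM, whereas cit1, kgd1, fum1 and mdh1 have it to the left.

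Citrate synthase, encoded by cit1, joins acetyl-CoA to oxaloacetate at the entry of the cycle. The gene lies on chromosome I from 2327828 to 2330289 on the plus strand. At 24°C cit1 had 310 FPKM in wild type but 246 in fas S.j., a change of -0.34 and the lowest of the 10 members. At 30°C it had 207 against 141 FPKM, a change of -0.55. The gene cit1 was thus lower in fas S.j. in both pairs of libraries. It shares its locus in the table with SPAC6C3.03c, a gene at a far lower level, with 1.85 FPKM in wild type and 3.04 in the other strain at 24°C.

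Aconitase, encoded by aco1, isomerises citrate to isocitrate with an iron-sulfur cluster in its active site. The gene lies on chromosome I from 3048060 to 3051463 on the minus strand. At 24°C aco1 went from 316 FPKM in the wild-type library to 365 in fas S.j., a change of 0.21. It was the most abundant member in both libraries. The gene idh1, on chromosome I from 3966766 to 3968132 on the plus strand, for a subunit of the NAD-linked isocitrate dehydrogenase, had 144 FPKM against 155, a change of 0.11. The gene of its partner subunit, idh2, went from 121 to 135 FPKM, a change of 0.15. Both subunits of this enzyme were thus slightly higher in fas S.j.

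The first subunit of the 2-oxoglutarate dehydrogenase complex, encoded by kgd1 on chromosome II from 1879064 to 1884199 on the plus strand, went from 81.7 FPKM in the wild-type library to 77.2 in fas S.j., a change of -0.08 at 24°C. It shares its locus with spo14, which changed by 0.47, and the sulfate transporter gene sul1, which went from 122 to 53.5 FPKM, a change of -1.17. Whether reads were divided between kgd1 and these neighbours was not tested. Fumarase, encoded by fum1 on chromosome III from 1988324 to 1990734 on the minus strand, hydrates the fumarate that SDH makes. It had 127 FPKM in wild type against 111 in fas S.j., a change of -0.19. Malate dehydrogenase, encoded by mdh1 on chromosome III from 421646 to 423421 on the minus strand, closes the cycle by restoring oxaloacetate. It had 297 FPKM against 271, a change of -0.13.

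At 24°C, 6 of the 10 members were higher in fas S.j. and 4 were lower, and their median change was 0.16. Of all 4943 genes from a mean FPKM of 1 upwards, 49.3% were higher and the median was -0.004. The median was 0.56 for the 4 SDH genes and -0.11 for the 6 others. The middle 90% of the 2127 genes at 50 FPKM or more lay between -0.44 and 0.60. The genes sdh2 and sdh4 lay above that range, and the 8 other members lay inside it. For the 4943 genes the same range was wider, from -0.457 to 0.712. There sdh4, at 0.708, lay inside, and sdh2 alone lay above. Of those 2127 genes, 6.72% were higher by more than 0.5, as sdh2 and sdh4 were. Consecutive steps of the cycle differed in direction: cit1 was lower and aco1 higher, and fum1, for the step after SDH, was lower.

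**Figure D2:**
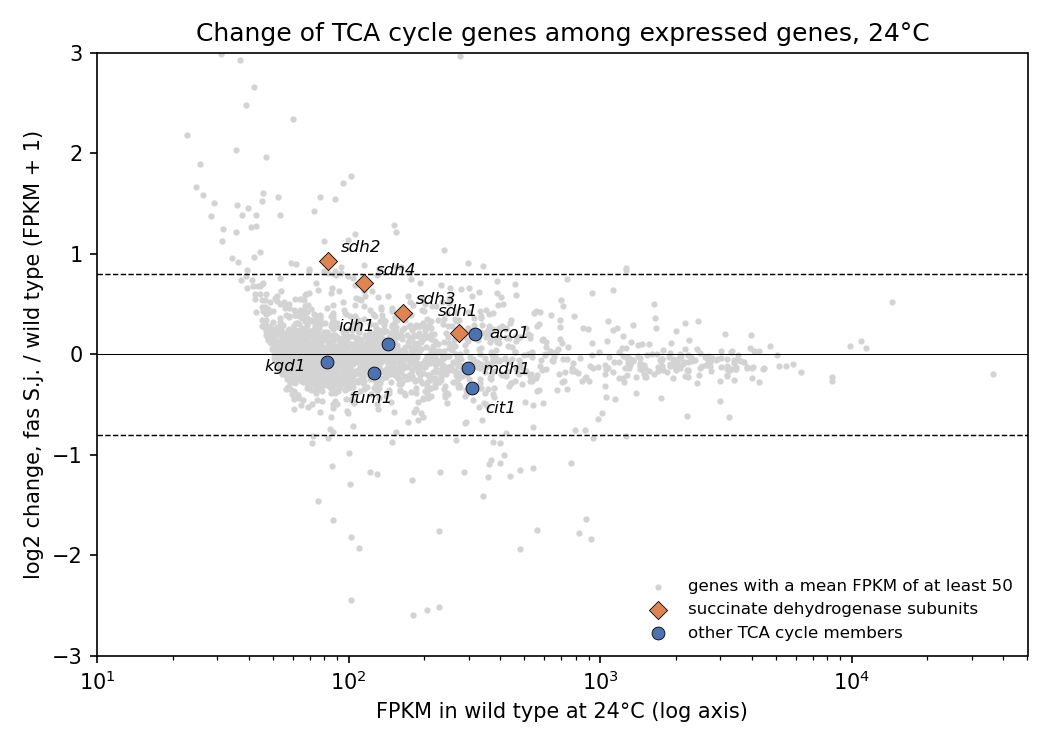
Log2 change at 24°C against wild-type FPKM (log axis) for genes from a mean FPKM of 50 upwards (grey), the 4 SDH subunits (diamonds) and the 6 other TCA cycle members (circles), with dashed lines at the fold limit of 0.8 in either direction. The axes leave out 10 genes. The diamonds descend from sdh2 at 0.93 to sdh1 at 0.21 as the wild-type level increases, and sdh2 is above the upper line. The wild-type level enters both axes.

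The DNA before the SDH genes was examined because their mRNAs were all higher in fas S.j. The sequence CCAAT is the binding motif of the Php2, Php3 and Php5 complex of S. pombe, a relative of the HAP complex of budding yeast. In low iron the complex recruits the repressor Php4, which lowers the mRNA of iron-using proteins, sdh4 among them. The motif CCAAT was sought on both strands from 250 bases before to 50 bases after each annotated transcript start of ASM294v3. It was found for 8 of the 10 members and for 42.3% of all 5144 transcripts with such a window. All 4 SDH genes had a CCAAT within the last 100 bases before the start, as did aco1 and idh1, 6 of the 10 members in all, against 16.4% of all transcripts. The gene kgd1, which was lower in fas S.j., also had CCAAT in its window. The other gene lists below were not searched for CCAAT. Whether the motif is particular to genes that were higher was therefore not tested. A match is a description of the sequence and not evidence of binding. Neither fum1 nor mdh1 had one in the window, and the single one of cit1 began 3 bases into the transcript. The motif TGACGT of the stress regulator Atf1 was found in the window of cit1 alone among the members, and in 5.95% of all windows. The windows below show the SDH genes from 100 bases before to 20 bases after the start, 5′ to 3′ on the coding strand, as given by RefSeq for ASM294v3, with CCAAT in capitals.
sdh1, chrI:3798443-3798562, minus strand: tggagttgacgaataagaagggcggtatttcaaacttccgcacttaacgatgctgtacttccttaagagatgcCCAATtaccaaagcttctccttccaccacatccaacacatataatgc
sdh2, chrI:1895331-1895450, plus strand: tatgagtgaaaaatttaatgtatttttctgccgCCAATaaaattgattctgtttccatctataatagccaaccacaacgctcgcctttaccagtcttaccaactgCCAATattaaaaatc
sdh3, chrIII:136629-136748, minus strand: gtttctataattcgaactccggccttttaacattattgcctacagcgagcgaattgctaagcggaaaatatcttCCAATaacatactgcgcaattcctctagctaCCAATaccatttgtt
sdh4, chrII:2035960-2036079, plus strand: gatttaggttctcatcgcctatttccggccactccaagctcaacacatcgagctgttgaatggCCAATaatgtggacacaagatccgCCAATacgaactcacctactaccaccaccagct

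In these windows the motif of sdh2, the subunit with the largest change, begins 67 bases before the start, with another 6 bases into the transcript. The motifs of sdh4 begin 37 and 13 bases before the start. Upstream of sdh1 and sdh3, the motifs closest to the start begin 27 and 26 bases before it, and sdh3 has another 6 bases into the transcript.

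**Figure D3:**
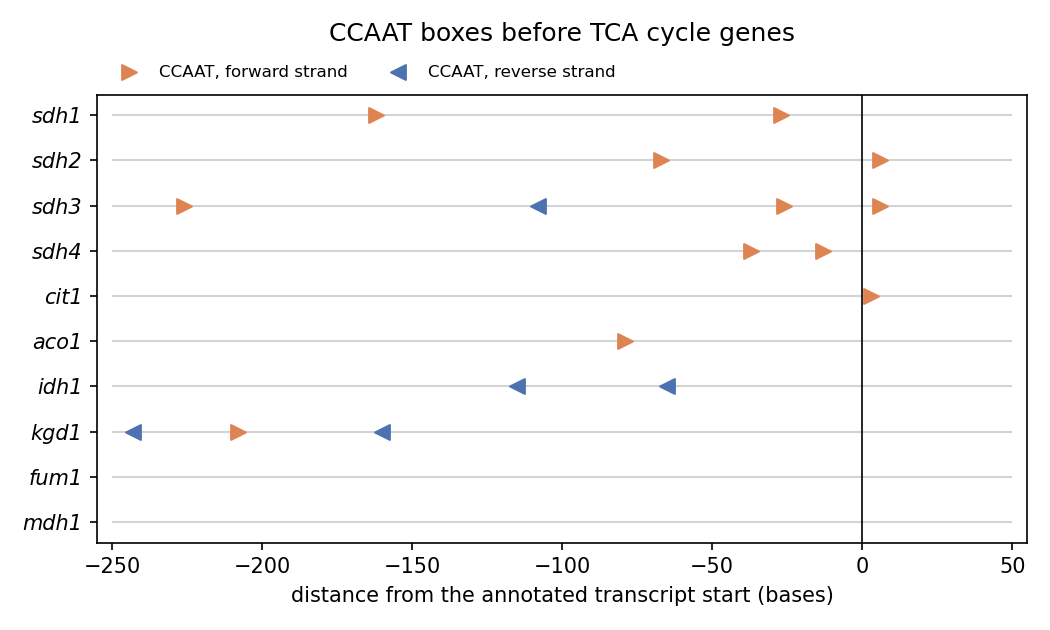
Positions of CCAAT on the forward strand (triangles pointing right) and the reverse strand (pointing left) from 250 bases before to 50 bases after the annotated transcript start of each TCA cycle gene, as distance from the start in bases. The 4 SDH genes each have a forward motif in the last 100 bases before the start, and fum1 and mdh1 have none in the window.

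The other genes of the cycle, of pyruvate dehydrogenase and of pyruvate and malate conversion did not show a common direction at 24°C. Of the 14 genes examined, 8 had more mRNA in fas S.j. and 6 had less, the median change was 0.09, and none was past the limit of 0.8. The highest was dld1, which encodes the dihydrolipoamide dehydrogenase that pyruvate dehydrogenase and 2-oxoglutarate dehydrogenase share, which went from 250 FPKM in the wild-type library to 356 in fas S.j., a change of 0.51. The pyruvate dehydrogenase genes pda1 and pdb1 changed by 0.28 and 0.17, pdx1 by 0.16 and lat1 by -0.09. The genes of succinyl-CoA ligase, which makes the succinate that SDH uses, changed by 0.08 for the alpha subunit SPAC16E8.17c and 0.10 for the beta subunit lsc2. The lowest was kgd4, for a small subunit of 2-oxoglutarate dehydrogenase, with 22.5 FPKM against 14.3, a change of -0.62. The malic enzyme gene mae2 went from 1143 to 839 FPKM, a change of -0.45, and kgd2 changed by -0.19. The NADP-linked isocitrate dehydrogenase gene idp1 changed by -0.12 and the pyruvate carboxylase gene pyr1 by -0.02.

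Genes for the assembly of SDH were at lower levels than its subunits and did not share their direction as a group. Of 4 such genes, sdh7 changed by 0.28, sdh6 by 0.07, emi5 by -0.09 and sdh8 by -0.12. Their wild-type FPKM lay between 13.7 for sdh6 and 52.7 for emi5. At 30°C, emi5 was listed with 51.3 FPKM for wild type against 34.3 for fas S.j., a change of -0.57.

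The subunits of the respiratory complexes that follow SDH differed from it in direction at 24°C. Of the 18 nuclear genes for the bc1 complex, cytochrome c and cytochrome c oxidase, 16 were lower in fas S.j., and the median change was -0.34. The lowest were cox4 and qcr1, each at -0.49, and the highest were cyc1, at 0.30, and qcr9, at 0.11. Of 12 ATP synthase genes, which are not a full list of its subunits, 11 were lower, with a median of -0.19. They ranged from atp17 and atp20, at -0.35 and -0.33, to atp1 and atp16, at -0.06 and 0.30. All 4 SDH subunits had a larger change than 17 of these 18 and 11 of these 12 genes, and the exceptions cyc1 and atp16 lay above sdh1. The difference between these lists has no test, since each rests on the same 2 libraries.

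Mitochondrial ribosomal protein genes had a median of -0.07 over 74 genes from a mean FPKM of 1 upwards, of which 22 were higher. The list was taken by RefSeq product name, which brings in kgd4, given above as a 2-oxoglutarate dehydrogenase subunit. The lowest were kgd4 and mrps28, the latter at -0.39, and the highest were fyv4 and mrpl31, at 0.44 and 0.45. Iron-sulfur cluster assembly genes, whose products serve Sdh2 and aconitase, had a median of 0.10 over 11 genes, 6 of them higher. The ends of that list were isu1 and etp1, at -0.40 and -0.21, and isa2 and grx5, at 0.43 and 0.49. Glycolysis genes had a median of 0.13 over 13 genes. The ends were gpd3 and pgk1, at -1.84 and -0.12, and pgi1 and eno102, at 0.61 and 2.55.

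**Figure D4:**
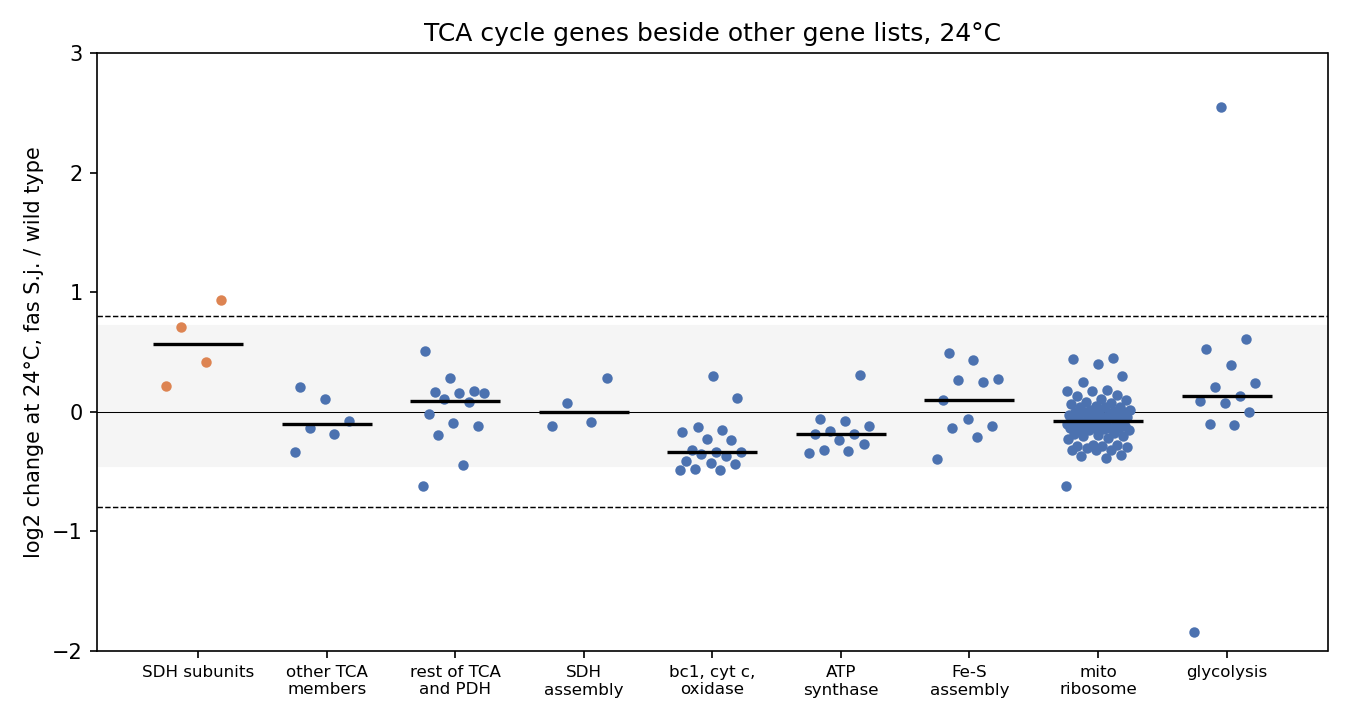
Log2 change at 24°C of each gene (points) with the list median (bars) for the SDH subunits, the other TCA cycle members and 7 further lists. The grey band is the 5th to 95th percentile of genes from a mean FPKM of 1 upwards, and dashed lines are at 0.8 in either direction. The SDH median is 0.56 and that of the bc1, cytochrome c and oxidase genes is -0.34.

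SDH shares ubiquinone with other enzymes that reduce it, and 7 of these were compared with it after their values had been seen. At 24°C, 5 of the 7 genes had less mRNA in fas S.j. and the median change was -0.39. The external NADH dehydrogenase gene nde1 went from 543 FPKM in the wild-type library to 247 in fas S.j., a change of -1.13 at 24°C. The other NADH dehydrogenase gene ndi1 changed by -0.30, the proline dehydrogenase gene put1 by -1.17 and the dihydroorotate dehydrogenase gene ura3 by -0.39. The glycerol-3-phosphate dehydrogenase gene gut2 changed by 0.06. The sulfide-quinone oxidoreductase gene hmt2 changed by -1.64. The highest was cir2, for the oxidoreductase that takes electrons from the electron transfer flavoprotein, which had 95.8 FPKM against 130, a change of 0.44. That value lies above those of sdh1 and sdh3 and below those of sdh2 and sdh4. The other 6 genes had lower changes than each SDH subunit.

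At 30°C the table that was analysed holds 285 genes, each lower in fas S.j., with log2 ratios of FPKM of -0.50 or below. It is a part of that comparison, so genes that were higher or slightly lower have no value there. Of the 10 members, 1 is listed (10%), against 5.54% of the 5143 genes of the 24°C table. The 4 SDH genes are not in it, and neither are aco1, idh1, kgd1, fum1 and mdh1, so their levels at 30°C were not analysed here. Of the 18 genes for bc1, cytochrome c and oxidase, 16 are listed (88.9%), and of the 12 ATP synthase genes 6 are (50%). The change of cit1 at 30°C, -0.55, is closer to 0 than those of most of these. The bc1, cytochrome c and oxidase genes that are listed ranged from -1.19 for rip1 to -0.55 for cox7. Of the 7 genes of other enzymes that reduce ubiquinone, 5 are listed (71.4%), from nde1 at -1.69 to ura3 at -0.59. Values of the temperatures were normalized apart, so the levels of cit1 at 24°C and 30°C are not compared with each other.

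**Figure D5:**
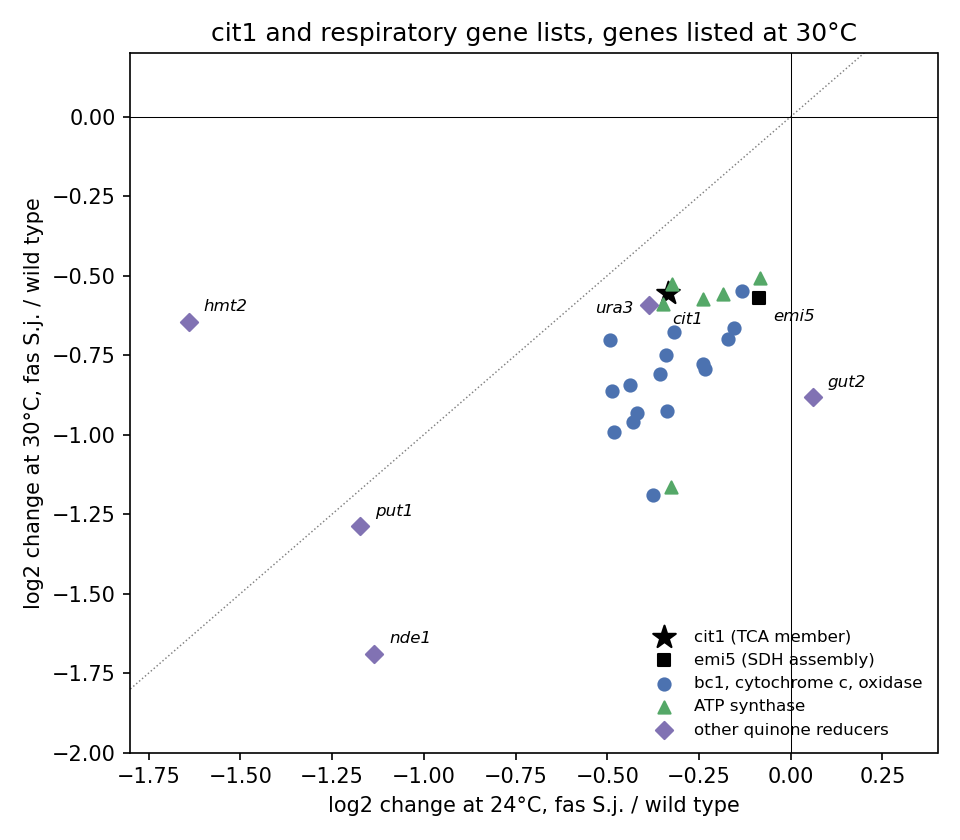
Log2 change at 30°C against log2 change at 24°C for the genes of 5 lists that are in the 30°C table, with cit1 as a star, emi5 as a square, bc1, cytochrome c and oxidase genes as circles, ATP synthase genes as triangles and other quinone-reducing enzymes as diamonds. The dotted line marks equal changes. Every gene in the 30°C table was lower in fas S.j., which places each point below 0 on that axis. The star of cit1 is at -0.34 and -0.55.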

How the data were processed

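Total RNA was extracted from exponentially growing cultures, and stranded poly(A) libraries were sequenced. Instrument and read length differ between the paper and the sample records. On the Galaxy platform, the authors aligned reads by TopHat and obtained FPKM values from Cuffdiff, separately for each temperature. The versions, the library scaling, the use of strand in counting and the genome build are not given in the sources used here. The deposited FPKM values of 1 library per strain and temperature were used as they stand. The tables also hold fold changes, p-values and q-values of the authors' comparison and, at 30°C, a short unlabelled list of genes with fold changes, and none of these was used. The 24°C table has 5143 genes, of which 2781 share a locus with another gene.

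Changes were log2 of the ratio of FPKM plus a pseudocount of 1, which understates the change of low genes. No p-value was computed. A gene was past the limit beyond 0.8 on this scale, and list medians used genes from a mean FPKM of 1 upwards. Members and lists were chosen with earlier results of these data known. The genes named are the members, the fas genes, genes in a member's locus, the lists of other TCA cycle and SDH assembly genes, and the 2 lowest and 2 highest genes of each other list. The values of 1 gene under this rule are not reported here. Genes of the quinone and iron lists, rip1, cox7 and mfm2 were chosen with their values in view.

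Of the identifiers, 5106 matched RefSeq ASM294v3 genes, without regard to the case of a final c. All 2348 matched genes alone in their locus overlapped their reference gene. Of the symbols in the lists, ymr31 (a synonym of kgd4), sdh5, acn9 and yfh1 had no match of their own. The symbol lsc1 belongs to another gene in RefSeq, so the ligase subunit was taken by its identifier.

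The tables hold no read counts. Products of low FPKM and locus length less 200 bases fell near multiples of 0.075 in wild type (36 genes) and 0.095 in fas S.j. (29 genes) at 24°C, which gives about 13300000 and 10500000 reads. These depths are approximate, and estimates of reads used the exon length less 200 bases. Depths at 30°C were not estimated. Intervals from them cover counting error only. Python 3.11.15, numpy 2.4.6, pandas 2.3.3 and matplotlib 3.10.9 were used, and the computation was tested on simulated data.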

Additional observations from a re-analysis of the deposited data

Results flagged for a closer look

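The glycerol-3-phosphate dehydrogenase gene gut2 had changes of opposite sign at the 2 temperatures. Its change was 0.060 at 24°C (from 51.3 FPKM to 53.6) and -0.88 at 30°C (from 93.0 FPKM to 49.96). The 30°C table holds only genes that were lower in fas S.j., so any gene listed there with a change above 0 at 24°C differs in direction, and the 24°C change of gut2 is small. Each value rests on 1 library per strain, so whether the temperatures differ was not tested.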

How the results depend on the processing

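The alternatives were a pseudocount of 0.1 or 10, subtraction of the median change (-0.01) of genes from a mean FPKM of 10 upwards, a minimum mean FPKM of 10 or none, fold limits of 0.5 and 1, and genes alone in their locus. A minimum of 50 for the background was added after seeing the data. Since there are no replicates, a shift of over 0.25 on the log2 scale, or of over 1.5 times for a count, was taken as a move. Of 86 values recomputed, 83 did not move in this sense. Medians near 0 took the other sign in 2 cases: that of the other TCA cycle and pyruvate dehydrogenase genes was -0.09 against 0.09 with genes alone in their locus, where 3 of 14 were left, and that of the SDH assembly genes was 0.005 against -0.006 after centring. No member's change moved by more than 0.068, and 0 had another sign. The number of members past the limit was 2 at a limit of 0.5 and 0 at a limit of 1, against 1 at 0.8. With genes alone in their locus, the median of the iron-sulfur assembly list was 0.43, where 3 of 11 genes were left. No paired analysis was possible because each group has 1 library and the labels give no replicate numbers.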

Other observations

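Genes of iron use and uptake were examined after their values had been seen, because Sdh2 and aconitase hold iron-sulfur clusters and SDH holds heme. The vacuolar iron importer gene pcl1 and the iron-sulfur assembly gene isa1 are, like sdh4, known to be lowered by Php4 when iron is scarce. At 24°C pcl1 went from 45.4 FPKM in the wild-type library to 74.6 in fas S.j., a change of 0.70, and isa1 changed by 0.25. Both changes lay below 0.712, the 95th percentile of the 4943 genes from a mean FPKM of 1 upwards. Among the 2127 genes from a mean FPKM of 50 upwards, pcl1 was above the 95th percentile of 0.60. No further genes lowered by Php4 were examined as a list. Other genes of iron-holding proteins went either way: the Rieske iron-sulfur protein gene rip1 changed by -0.37 and the cytochrome c gene cyc1 by 0.30. The 6 iron uptake genes examined, which Fep1 represses in high iron, all had less mRNA in fas S.j., with a median change of -0.87 at 24°C. Among them, the siderophore transporter genes str3 and str1 changed by -2.55 and -1.41, the oxidase gene fio1 by -1.01 and the permease gene fip1 by -0.72. The reductase gene frp1 changed by -0.57 and str2 by -0.14. Of the 4943 genes from a mean FPKM of 1 upwards, 49.3% were higher, and the 5th percentile was -0.457. The comparison analysed for 30°C holds only lower genes, among them str3 at -2.35, str1 at -1.18 and fip1 at -0.52. It gives no value for fio1, frp1 and str2.

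The mRNA of the regulators of these genes went either way. At 24°C the repressor gene php4 went from 63.3 FPKM to 70.5, a change of 0.15, and fep1 changed by 0.26. The CCAAT-binding subunit genes php2, php3 and php5 changed by 0.28, -0.10 and -0.32, and php5 was also listed at 30°C, at -0.64. The part of iron in the levels of the SDH genes was not tested.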
